A study of Homo sapiens and Mus musculus with 20 samples.

Results

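The cytosolic ribosomal protein genes encode the proteins that, with ribosomal RNA, make up the large and the small subunit of the ribosome in the cytosol. They were taken by symbol from the values of 12 IMR90 RNA-seq libraries, namely symbols that start with RPL or RPS and go on with a number and an optional A, X or L, together with RPLP0, RPLP1, RPLP2 and RPSA, with pseudogenes left out. This rule found 81 of the 17554 genes listed in any of these libraries, 50 for the large subunit and 31 for the small subunit, and 5 of the 81 were paralogue symbols (RPL22L1, RPL26L1, RPL39L, RPL7L1 and RPS27L). In the A485 experiment 80 were listed, in the MS-275 experiment 81 and in the pyruvate experiment 79. RPS18 was not among the genes listed in the A485 and pyruvate experiments, nor RPL36A in the pyruvate experiment. Every listed member passed the filter on low values.

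IMR90 is a human fetal lung fibroblast line, and all 12 libraries were labelled as wild-type lung fibroblasts. They formed 6 groups of 2 libraries: A485, which inhibits the acetyltransferase p300, beside Control2; MS-275, which blocks histone deacetylases of class I, beside Control3; and pyruvate beside Control6, where each control was labelled as untreated. The study asked how cells respond when enzymes that add or remove histone lactylation are blocked, or when pyruvate, a precursor of lactate, is supplied, and its text describes the cells given pyruvate as senescent. No dose, time or vehicle was in the labels, and nothing in them says that the 2 libraries of a group came from separate cultures, so p-values measure the spread between these libraries. Of 10 fibroblast markers, all were present in every library, whereas of 9 markers of epithelial, endothelial and blood cells EPCAM reached at most 208, VWF 164 and LYZ 21.4 and the others were not among the listed genes. The fibroblast marker FAP was as low as 118 in the A485 experiment, where EPCAM reached its 208. In the pyruvate experiment FAP was as low as 117 and LUM as low as 180. Reads on listed genes numbered 24179065 to 46971227 per library. Values are read counts per gene divided by a size factor for each library, called normalized values here.

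Ribosomal protein genes are among the most strongly transcribed genes of a growing cell. Most of their products are needed in equal number, so that mRNAs of very different genes are often kept at related levels. Most of these mRNAs start with a run of pyrimidines, the terminal oligopyrimidine (TOP) tract, through which the kinase mTOR and the mRNA-binding protein LARP1 set their translation and stability. Transcription of the genes responds to growth signals and to MYC, and in fibroblasts that stop dividing the demand for new ribosomes falls. Some ribosomal proteins have further roles: RPL5 and RPL11 bind the ubiquitin ligase MDM2 when ribosome assembly fails, RPS6 is the target of S6 kinases, and RPS27A is made as a fusion with ubiquitin.

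RefSeq start sites (build GRCh38.p14) were matched by symbol for 66 of the 81 members. In 50 of these 66, 75.8%, a run of at least 8 pyrimidines (C or T, on the gene's strand, whichever annotated start had the longer run) reached within 5 bases of the start. The same was found for 13.7% of 27305 symbols overall and for 7 of 74 mitochondrial ribosomal protein symbols, 9.46%. The windows printed next hold 30 bases from 15 before the start, 5′ to 3′. Capitals mark the longest run of pyrimidines that reached within 5 bases of the start. Shown are members with the strongest falls after A485, RPS19 with the lowest fold change after pyruvate and, for contrast, members without a long run.
RPL22L1: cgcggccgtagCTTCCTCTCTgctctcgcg
RPL10: caggcggaggagcgCCTCTTTCCCTTCggt
RPSA: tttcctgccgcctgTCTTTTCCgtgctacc
RPLP0: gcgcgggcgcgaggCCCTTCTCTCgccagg
RPL41: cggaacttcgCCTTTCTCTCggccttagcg
RPS6: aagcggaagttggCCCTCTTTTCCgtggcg
RPS19: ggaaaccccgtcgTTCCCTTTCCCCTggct
RPL3: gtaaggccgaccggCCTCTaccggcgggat
RPL7L1: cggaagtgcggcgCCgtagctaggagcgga
RPS27L: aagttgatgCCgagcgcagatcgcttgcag
RPL26L1: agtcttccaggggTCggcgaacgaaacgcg
These windows lie at chr3:170870181-170870210, minus strand (RPL22L1), chrX:154398362-154398391, plus strand (RPL10), chr3:39406705-39406734, plus strand (RPSA), chr12:120201097-120201126, minus strand (RPLP0), chr12:56116618-56116647, plus strand (RPL41), chr9:19380222-19380251, minus strand (RPS6), chr19:41860240-41860269, plus strand (RPS19), chr22:39319609-39319638, minus strand (RPL3), chr6:42879601-42879630, plus strand (RPL7L1), chr15:63157463-63157492, minus strand (RPS27L) and chr5:172958714-172958743, plus strand (RPL26L1). The run held 13 pyrimidines in RPL10 and in RPS19, 11 in RPS6, 10 in RPL22L1, RPLP0 and RPL41, 8 in RPSA and 5 in RPL3, while the paralogues RPL7L1, RPS27L and RPL26L1 had 2 each. A run of letters is a description of the annotated start, and other starts may be used in these cells.

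Divided by the length of the canonical transcript, the members were among the most abundant mRNAs of untreated IMR90 cells. Their median stood at percentile 99.3 of all genes in Control2, 99.5 in Control3 and 98.2 in Control6, and 65 of 80, 67 of 81 and 59 of 79 members were in the top 5% of genes. RPS2, a protein of the small subunit near the mRNA entry, was highest in each control, at 101948 normalized counts per kilobase in Control2, 155281 in Control3 and 67333 in Control6. RPLP0, which carries the ribosomal stalk, followed at 69815, 104400 and 58598 in the same order. The order of the members was nearly the same in Control2 and Control3 (Spearman's rho 0.99 over 79 genes) and less alike between either of them and Control6 (0.85 and 0.85). Genes and their lengths are shared between these rankings, so no p is given.

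Several members were listed at far lower levels than the rest. RPS9 had 30.2 normalized counts per kilobase in Control2, RPS10 70.4, RPL36A 101, RPL17 341 and RPL26 820.3, against a median of 23447 over the members, and RPS18 had 37.5 in Control3. These genes were singled out after their values were seen. In the GENCODE annotation exons of another gene on the same strand covered 96.9% of the canonical RPL17 transcript, 84.0% of RPS10, 65.3% of RPL26 and 43.8% of RPL36A, for RPL17, RPS10 and RPL36A mostly a readthrough gene, and the next highest share among the 81 was 11.2%. The middle 100 bases of the longest exon were found unchanged in 9 of 261 alternate contigs of the hg38 sequence for RPS9 and in 4 for RPS18, and otherwise only for RPL41 (2) and RPS15A (1). Reads that fall on overlapping genes or on copies can be left out or split in counting, whose settings are not given in the sources used here, so values of these genes are uncertain. Genes on the other strand overlap RPL38 over 59.0% of its transcript, RPL10 over 53.7% and RPL30 over 51.4%. These are uncertain for the same reason if reads were counted without strand. Smaller shares were found in others, among them RPS27A (31.7%), RPS28 (27.4%), RPS3A (24.1%) and RPS6 (20.6%). Members also share sequence with many processed pseudogenes, whose listed symbols summed to 3.25% to 3.88% of the members' reads.

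The A485 comparison shows ribosomal protein mRNAs at lower levels across both subunits. Of 80 members, 79 had a log2 fold change below 0, with a median of -0.80 against 0.0088 over all 16084 genes tested. By limma with Benjamini-Hochberg adjustment over all genes, 30 fell and 0 rose at an adjusted p under 0.05, where 8.21% of all genes fell and 4.43% rose. For members, 66 had an unadjusted p under 0.05 with a negative change and 0 with a positive one, against 2752 and 2197 of all 16084 genes. In 12 members the fall was also above 1 on the log2 scale, against 7.06% of all genes. In 75 of 80 members both A485 libraries lay below both Control2 libraries, where 30.7% of all genes did so. Of the 50 large subunit members 19 fell (median -0.82), and of the 30 small subunit members 11 fell (median -0.76).

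**Figure D1:**
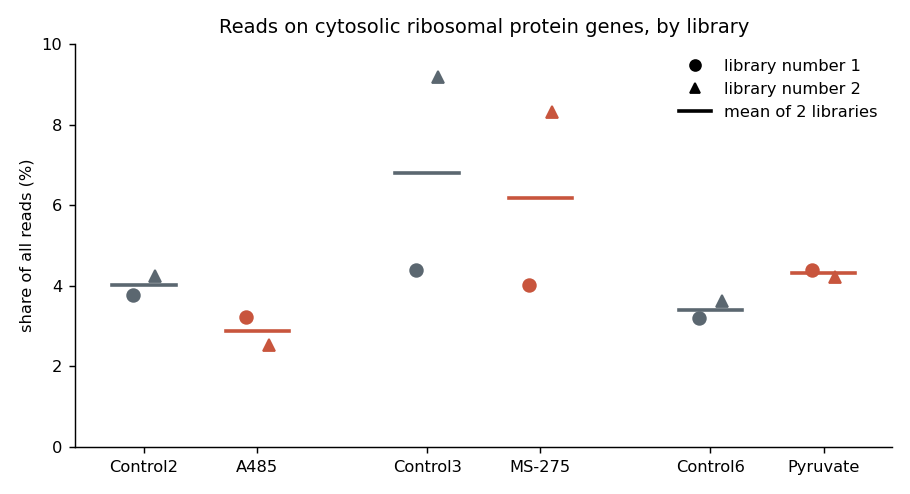
Share of all reads (%, vertical axis) on the cytosolic ribosomal protein genes in each of the 12 IMR90 libraries, by group, with circles for library number 1, triangles for number 2 and bars for the mean of the 2 libraries. Both A485 libraries (3.23% and 2.53%) lay below both Control2 libraries, both pyruvate libraries (4.39% and 4.22%) above both Control6 libraries, and in the MS-275 experiment the libraries numbered 2 held about as much more than those numbered 1 in both groups.

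The share of reads on the members does not rest on the size factors. It was 3.78% and 4.25% in Control2 and 3.23% and 2.53% after A485. The groups did not overlap, and the mean after A485 was 0.717 times that of Control2, but an exact permutation test of 2 against 2 libraries (two-sided) gives p = 0.333, which is the smallest it can give. The ratio was 0.718 for the large subunit and 0.715 for the small subunit, so that the large subunit held 65.1% to 66.8% of the members' reads throughout. In a bulk sample fewer cells of a type and less RNA per cell cannot be told apart, nor can less ribosomal protein mRNA and more of other mRNA. Mitochondrially encoded genes took 4.09% and 5.34% in Control2 and 5.46% and 6.90% after A485, and with them left out the members' ratio was 0.727. The 10 fibroblast markers together summed to 1853502 and 2230000 normalized counts in Control2 and 555160 and 667939 after A485, and without the 10 most abundant other genes the members' ratio was 0.697.

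Counts of members that passed depended on the setting more than their direction did. The shares of all genes that passed under these settings are not given here, so the counts describe the members only. With library totals made equal, 10 members fell and the median was -0.41 while that of all genes moved to 0.40, so the gap between members and all genes was about the same as with the deposited factors. With quantile normalization 3 fell (median -0.36). Without Control2 replicate 1, Control2 replicate 2, A485 replicate 1 or A485 replicate 2, 4, 0, 0 and 0 members passed, with medians of -0.95, -0.66, -0.92 and -0.65. On the recovered whole reads edgeR's quasi-likelihood test found 26 lower and 0 higher, and all 26 were among the 30.

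**Figure D2:**
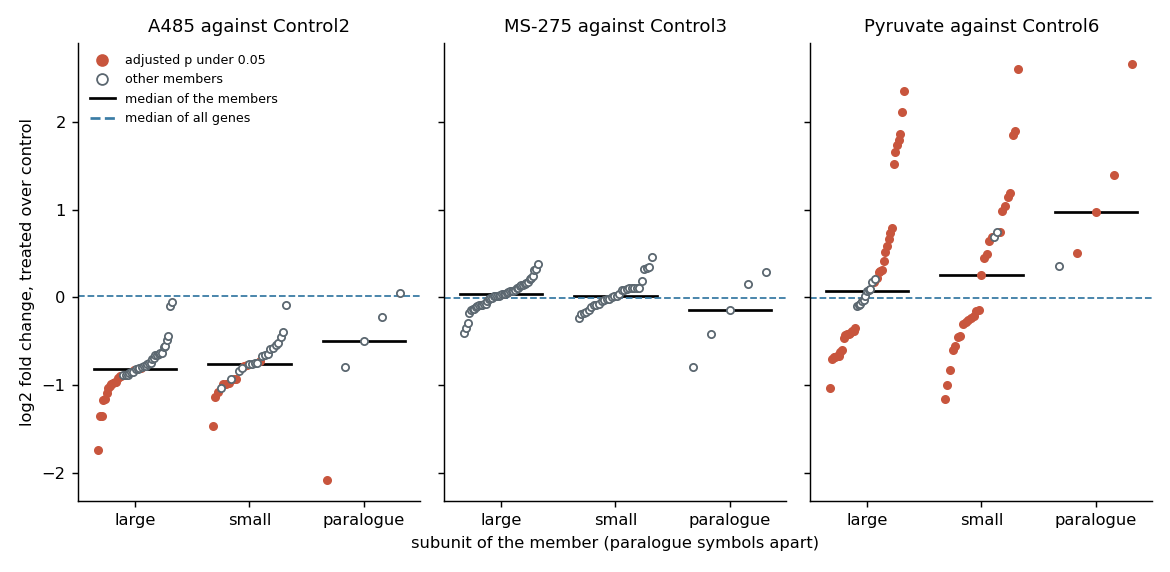
Log2 fold change (vertical axis) of each member in the 3 comparisons, with the large and small subunit and the paralogue symbols apart, ordered by value within each column; filled points had an adjusted p under 0.05 by limma, black bars are medians of the members shown and the dashed line is the median of all genes. After A485 all but 1 member lay below 0, after MS-275 they lay on both sides of 0 with none filled, and after pyruvate they spread from -1.17 to 2.67.

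RPL22L1, a paralogue of RPL22 that can take its place in the large subunit, changed most after A485. RPL22L1 (chromosome 3, 170864875 to 170870208, hg38) measured 2046 and 1825 in Control2 and 531 and 389 after A485 (log2 fold change -2.09, SE 0.23, adjusted p 0.00558). RPL10 (chromosome X, 154389955 to 154409168), which completes the large subunit late in its assembly, measured 34319 and 46380.4 in Control2 and 12775 and 11200.5 after A485 (log2 fold change -1.74, SE 0.22, adjusted p 0.00825). The A485 values were well apart from the Control2 values in both genes, at 0.236 and 0.3 times the control, as converted from the log2 fold changes. RPSA (chromosome 3, 39406716 to 39426255), a small subunit protein also known as a laminin receptor, measured 50217 and 56542 in Control2 and 21927 and 16990.1 after A485 (log2 fold change -1.47, SE 0.22, adjusted p 0.0132). Its libraries did not overlap between groups. Under quantile normalization RPL22L1 kept its call and RPSA did not (adjusted p 0.0841, limma).

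The stalk proteins, which bring elongation factors to the ribosome, did not all change to the same degree. RPLP0 (chromosome 12, 120196699 to 120201235), its base, measured 69592 and 84699.9 in Control2 and 29592 and 30454 after A485 (log2 fold change -1.35, SE 0.22, adjusted p 0.0164). RPLP1 measured 25796 and 31167 in Control2 and 20050.5 and 15385 after A485 (log2 fold change -0.69, SE 0.22, adjusted p 0.0939). RPLP2 measured 13202 and 14537 in Control2 and 9608 and 8047 after A485 (log2 fold change -0.66, SE 0.18, adjusted p 0.065). All A485 values lay below their Control2 values, but only RPLP0 passed the test. The difference between RPLP0 and its partners was not tested.

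The other members chosen for their roles were lower too, though not all passed. RPL41 (chromosome 12, 56116590 to 56117967), which encodes the smallest ribosomal protein, measured 32694 and 37028 in Control2 and 15214 and 15976 after A485 (log2 fold change -1.16, SE 0.18, adjusted p 0.0156). RPS6 (chromosome 9, 19375715 to 19380236) measured 36132 and 47557 in Control2 and 22283 and 15814 after A485 (log2 fold change -1.14, SE 0.26, adjusted p 0.0398). RPS3 (chromosome 11, 75399515 to 75422280), at the mRNA entry, measured 30761 and 36944 in Control2 and 16910.2 and 15083 after A485 (log2 fold change -1.08, SE 0.20, adjusted p 0.023). In each of these genes the higher A485 library was below the lower Control2 library. RPL5 (log2 fold change -0.89, adjusted p 0.0552), RPL11 (-0.86, 0.0516), RPL3 (-0.89, 0.0598) and RPS27A (-0.76, 0.0512) had adjusted p just above the threshold by limma. RPL5, which enters the ribosome with the 5S RNA, measured 25886 and 34172 in Control2 and 17889 and 14356 after A485. RPL11, of the same particle, measured 20458 and 25473 in Control2 and 14135 and 11247 after A485. Neither overlapped between groups. RPL37 also fell (log2 fold change -1.18, SE 0.24, adjusted p 0.0306), as did RPL8, RPL27A and RPL35, named here after their values were seen, with log2 fold changes of -1.09, -1.03 and -1.01.

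A few members stood apart from the general fall. RPL7L1, a paralogue of RPL7 that works in ribosome assembly, measured 10268 and 9174 in Control2 and 9915 and 10178 after A485 (log2 fold change 0.05, 95% CI -0.35 to 0.45). RPL22 measured 4966 and 6119 in Control2 and 5883 and 4472 after A485 (log2 fold change -0.10, 95% CI -0.61 to 0.41). RPS27L, a paralogue of RPS27 known as a p53 target, measured 5864 and 8598 in Control2 and 6233 and 5914 after A485 (log2 fold change -0.23, 95% CI -0.77 to 0.32). In these genes the groups overlapped, and these 3 with RPL26 and RPS9, whose levels are uncertain, were the 5 members whose A485 libraries were not both below both controls. With equal library totals, which raised all genes alike, RPL22, RPL26, RPS27L and RPS9 had log2 fold changes of 0.29, 0.34, 0.17 and 0.28, all still below the all-gene median of 0.40. Members with a run of at least 8 pyrimidines at the start had a median log2 fold change of -0.79 (19 of 49 fell) and those with a matched start and no such run -0.76 (5 of 16 fell), a difference that was not tested.

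Ratios within a library do not depend on its size factor. The log2 ratio of RPL22L1 to RPL22 was -1.28 and -1.75 in Control2 and -3.47 and -3.52 after A485, a mean difference of -1.98. The ratio of RPL7L1 to RPL7 was -1.37 and -2.03 in Control2 and -0.9987 and -0.58 after A485, and that of RPS27L to RPS27 differed by 0.32. For these 3 pairs the groups did not overlap (exact permutation p = 0.333 each, two-sided, the smallest possible with 2 against 2 libraries). The ratios of RPL39L to RPL39 and of RPL26L1 to RPL26 overlapped between groups.

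**Figure D3:**
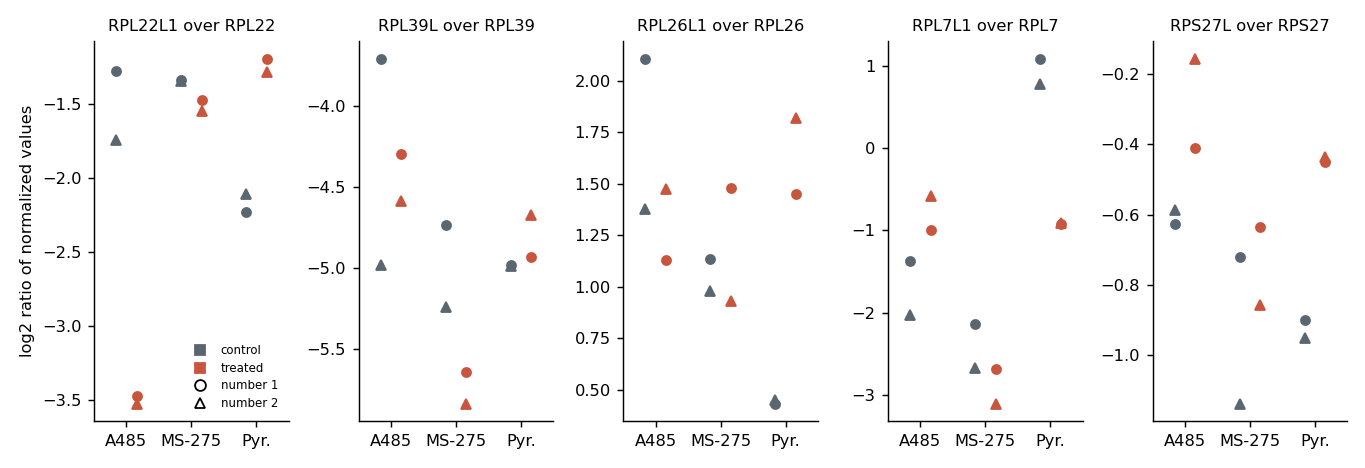
Log2 ratio of each of the 5 paralogue symbols to its partner (vertical axes, scaled for each pair) in every library of the 3 experiments, grey for control, red for treated, circles for number 1 and triangles for number 2; Pyr. stands for pyruvate. The ratio of RPL22L1 to RPL22 was lower after A485 (-3.47 and -3.52 against -1.28 and -1.75) and higher after pyruvate (-1.19 and -1.28 against -2.23 and -2.10).

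Genes that work with the ribosome gave a mixed picture after A485, in lists chosen with earlier results of these data known, to be read against the 8.21% of all genes that fell and the 4.43% that rose. Mitochondrial ribosomal protein genes, which serve the organelle's own ribosome, had a median log2 fold change of -0.03, with 1 of 83 higher and 2 lower past the test. Of 19 translation elongation and TOP mRNA genes 4 fell and 0 rose (median -0.66); EEF1B2, an exchange factor for elongation factor 1, had 13854 and 15597 in Control2 and 5263 and 4095 after A485 (log2 fold change -1.66, SE 0.19, adjusted p 0.00643). EEF1D, of the same complex, had 1189 and 1317 in Control2 and 50.6 and 16.03 after A485 (log2 fold change -5.40, SE 0.55, adjusted p 0.00449), which sets it far from the rest of the list. Of 11 RNAs that host small nucleolar RNAs 4 fell (median -0.63), led by GAS5 with 5138 and 5203 in Control2 and 1593 and 1186 after A485 (log2 fold change -1.91, SE 0.20, adjusted p 0.00473). Of 42 ribosome biogenesis genes 10 fell and 0 rose (median -0.60). FBL, the methyltransferase of ribosomal RNA, changed by -1.60 and RRS1, an assembly factor, by -1.99 (adjusted p 0.00836 and 0.00498, limma). Of 13 regulators of ribosome supply 2 fell and 1 rose: MYC had 2063 and 2166 in Control2 and 340.5 and 263 after A485 (log2 fold change -2.82, SE 0.22, adjusted p 0.00239), EIF4EBP1 changed by -2.16 (adjusted p 0.0112) and GABPA by 0.99 (adjusted p 0.0212). FAU and RPL36AL, which encode ribosomal proteins outside the symbol rule, had log2 fold changes of -0.44 and -0.0055, and neither passed. Of 103 listed ribosomal protein pseudogenes 14 fell (median -0.78), which may share reads with their parent genes.

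In the MS-275 comparison the members differed far more between the numbered libraries than between the groups. Their share of reads was 4.397% and 9.19% in Control3 and 4.01% and 8.32% after MS-275, so that in each group the library numbered 2 held more than double the share of the library numbered 1. The groups overlapped (exact permutation p = 0.667, two-sided). Between replicates, the libraries numbered 2 exceeded those numbered 1 by a median of 1.05 on the log2 scale over the members in Control3 and 1.10 in MS-275, where the medians over all genes were 0.028 and 0.039. What the numbers stand for is not in the labels. Mitochondrially encoded genes took 4.05% and 2.77% in Control3 and 4.48% and 3.70% after MS-275, and the 10 fibroblast markers summed to 1899479 and 879227 normalized counts in Control3 and 1807612 and 767303 after MS-275. Their part in the difference between the numbers was not tested.

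In the fit without regard to number, limma called 0 of 81 members, and 0 had an unadjusted p under 0.05 in either direction. Among all 15883 genes 0% passed, with 985 higher and 745 lower at an unadjusted p under 0.05. The median log2 fold change of the members was 0.020 (all genes -0.0084), 47 were positive and 34 negative, and SEs reached 0.794. With equal library totals the members' median was -0.12, and the median of all genes moved alike, to -0.15. This spread sets the limit: without 1 library the median ranged from -0.50 to 0.57. In simulated data with this spread and few changed genes, none of the changes of 1 or 2 on the log2 scale was recovered. This fit can thus miss changes of that size in a single gene.

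Within the numbers, members differed little between MS-275 and Control3. The median difference was -0.012 in number 1 and 0.024 in number 2, against -0.027 and 0 over all genes. Within both numbers 29 of 81 members were lower and 34 higher, where 40.4% of all genes were lower and 38.6% higher in both. For the large subunit 17 of 50 were lower and 20 higher in both, and for the small subunit 12 of 31 and 14 of 31. These are descriptions of 2 pairs of libraries that share only a number. With the number as a block, limma gave 4 of 81 members higher (RPL27, RPS16, RPL11 and RPL5), where 19.9% of all genes were, and 4 lower (RPL39L, RPL7L1, RPL41 and RPL10), where 19.4% were.

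**Figure D4:**
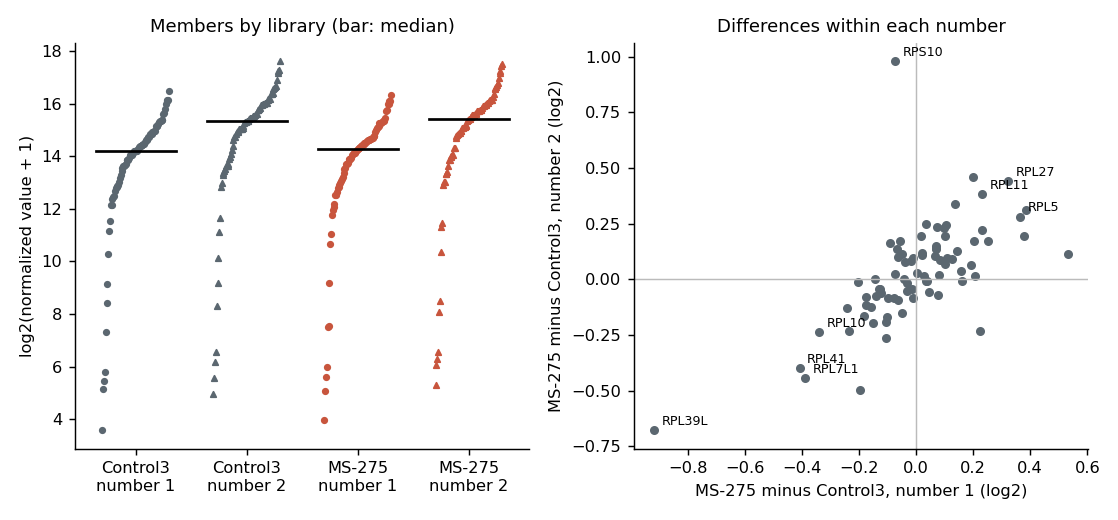
Left, log2(normalized value + 1) of the 81 members in the 4 libraries of the MS-275 experiment, ordered by value within each library, with bars at the medians. Right, the log2 difference between MS-275 and Control3 of each member within number 1 (horizontal axis) and within number 2 (vertical axis); the libraries numbered 2 lay about 1 log2 unit higher in both groups, while most differences within a number stayed near 0, with RPL39L lowest at -0.92 and -0.68.

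The largest differences within the numbers were in paralogues and in a few core proteins. RPL39L, the paralogue of RPL39 at the exit tunnel of the large subunit, measured 343 and 573 in Control3 and 181 and 358 after MS-275, with log2 differences of -0.92 and -0.68 within numbers 1 and 2. RPL7L1 measured 8349.8 and 10489 in Control3 and 6378 and 7707 after MS-275 (differences -0.39 and -0.44). RPL41 measured 32169 and 65591 in Control3 and 24241 and 49697 after MS-275 (differences -0.41 and -0.40). In these 3 genes each MS-275 library was below the control library of its number, but only in RPL7L1 were both MS-275 libraries below both controls. RPL36A, whose level is uncertain, had differences of -0.20 and -0.50.

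On the other side, RPL27 of the large subunit measured 19050.1 and 41123 in Control3 and 23838 and 55788 after MS-275 (differences 0.32 and 0.44). RPS16 of the small subunit measured 14801 and 33771 in Control3 and 16998 and 46462 after MS-275 (differences 0.20 and 0.46). In both genes the libraries numbered 2 were again far above those numbered 1. RPL5 measured 31081 and 55098 in Control3 and 40034 and 66964 after MS-275 (differences 0.37 and 0.28). Its partner RPL11 measured 21534 and 41347 in Control3 and 25291 and 53886 after MS-275 (differences 0.23 and 0.38). Each MS-275 library of these 4 genes was above the control of its number, and the groups as such overlapped. RPS10 and RPS18 were also among the 4 highest log2 fold changes, at 0.45 and 0.35, but rest on normalized values of at most 92.7 and 37.9. RPLP0, RPLP1, RPLP2, RPL3, RPS3, RPS6, RPS27A and RPSA had log2 fold changes between -0.19 and 0.11.

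The ratios of paralogues are free only of what a number does to a paralogue and its partner alike. Libraries numbered 2 exceeded those numbered 1 by medians of 0.74 in Control3 and 0.63 in MS-275 over the paralogues, against 1.05 and 1.10 over the members. The ratios thus still differed between the numbers. The difference between groups was largest for RPL39L. The log2 ratio of RPL39L to RPL39 was -4.73 and -5.24 in Control3 and -5.64 and -5.83 after MS-275. The ratio of RPL7L1 to RPL7 was -2.14 and -2.67 against -2.68 and -3.10. Neither ratio overlapped between groups (exact permutation p = 0.333, the smallest possible), nor did that of RPL22L1 to RPL22, with a mean difference of -0.17. For RPL7L1 the nearest libraries of the groups barely differed, at -2.669 in Control3 and -2.684 after MS-275. RPL26L1 and RPS27L overlapped in their ratios.

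None of the related lists had a gene past the test after MS-275, where 0% of all 15883 genes passed. Ribosome biogenesis genes had a median log2 fold change of -0.25. Within both numbers 30 of 41 were lower and 2 higher, where 40.4% of all genes were lower and 38.6% higher. With the number as a block, limma gave 14 lower and 1 higher, where 19.4% and 19.9% of all genes were. UBTF, which activates RNA polymerase I, had 4273 and 4870.2 in Control3 and 2132 and 2271 after MS-275 (log2 fold change -1.05, adjusted p 0.328, limma) and NCL, which encodes nucleolin, had -0.95 (adjusted p 0.412). Medians were -0.09 for 82 mitochondrial ribosomal protein genes, 0.15 for 19 elongation and TOP mRNA genes, -0.05 for 11 small nucleolar RNA hosts and -0.02 for 13 regulators, with MYC at 0.49 (adjusted p 0.685). FAU and RPL36AL had -0.08 and 0.13, and 123 listed pseudogenes had a median of 0.07. In mitochondrial ribosomal protein genes the libraries numbered 2 also exceeded those numbered 1, by medians of 0.71 and 0.76, but ribosome biogenesis genes did so by 0.19 and 0.18.

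After pyruvate the members split into rises and falls, much as all genes did. RPL22L1 was highest at 6.36 times the control and RPS19 lowest at 0.445 times, and the order followed their GC content. By limma with Benjamini-Hochberg adjustment 35 of 79 rose and 30 fell, where 40.6% of all 12013 genes rose and 40.2% fell. With a change above 1 on the log2 scale 15 rose and 3 fell, against 31% and 23.1% of all genes. Both pyruvate libraries lay above both Control6 libraries in 38 of 79 members and below both in 32. Of all 12013 genes 5426 lay above both and 5442 below both, so groups without overlap were common to most genes here. The median was 0.18 (all genes -0.0069). Without Control6 replicate 1 it was 0.035, with 33 higher and 34 lower. With equal library totals 47 rose and 15 fell (median 0.49, all genes 0.30), and with quantile normalization 50 rose and 14 fell (median 0.49). In a fit shared by all 12 libraries, whose spread then includes that of the MS-275 experiment, 18 rose and 0 fell. For these alternative settings the shares of all genes that passed are not given, so the counts cannot be set against them. Large subunit members had a median of 0.09 (21 rose, 16 fell, of 49) and small subunit members 0.35 (14 rose, 14 fell, of 30).

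As a share of reads, free of the size factors, the members went from 3.19% and 3.61% in Control6 to 4.39% and 4.22% after pyruvate. The groups did not overlap and the ratio of means was 1.27 (exact permutation p = 0.333, two-sided, the smallest possible). The ratio was 1.24 for the large and 1.33 for the small subunit, so the large subunit's part of the members' reads went from 66.3% and 66.3% to 64.6% and 64.7%. Mitochondrially encoded genes took 6.69% and 6.68% in Control6 and 4.68% and 4.72% after pyruvate, and without them the ratio was 1.24. Fibroblast markers summed to 1275069 and 1185186 normalized counts in Control6 and 1014230 and 1025247 after pyruvate.

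The fold changes followed the GC content of the transcripts, both in the members and in all genes. Spearman's rho with GC was -0.58 over 79 members and -0.72 over 11888 genes, and with transcript length 0.10 and 0.33, as descriptions across genes that share libraries. Of 23 members under 45% GC 14 rose and 3 fell, with a median log2 fold change of 0.66 where all genes of that range had 1.61. From 45% to 50% 17 of 27 rose and 8 fell (median 0.45, all genes 0.17). From 50% to 55% 4 of 16 rose and 7 fell (-0.083, all genes -0.62), and from 55% up 0 of 13 rose and 12 fell (-0.47, all genes -1.04). The members' median was thus below that of genes of like GC in the lowest range and above it in the other 3. In the A485 experiment rho with GC was -0.21 over 80 members and -0.11 over all genes, and in the MS-275 experiment -0.019 and -0.016.

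**Figure D5:**
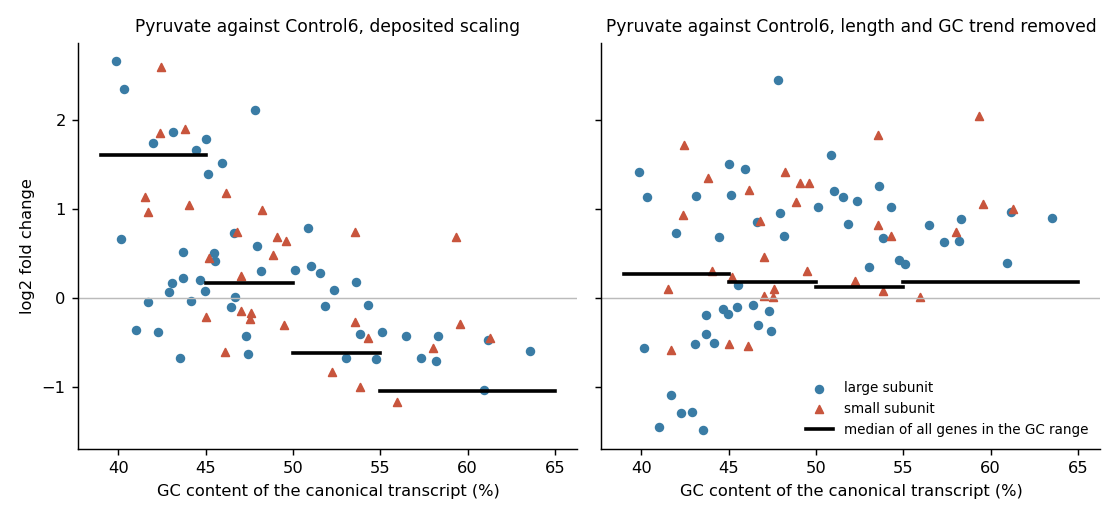
Log2 fold change after pyruvate (vertical axis) of each member against the GC content of its canonical transcript (horizontal axis, %), with circles for the large and triangles for the small subunit and black bars for the median of all genes in each GC range; left with the deposited scaling, right after removal of a smooth trend on length and GC from each library. On the left members and genes descend together from low to high GC, and on the right the bars are level between 0.13 and 0.27 while the members rise with GC.

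When a smooth trend on length and GC was taken from each library, the picture of the members changed. Then 53 of 79 rose and 17 fell, where 40.4% of 11888 genes rose and 25.5% fell, and the median was 0.69 against 0.20 for all genes. Of the 35 that had risen 29 still rose, 4 fell and 2 did not pass. Of the 30 that had fallen 7 still fell, 18 rose and 5 did not pass. The members' rho with GC turned from -0.58 to 0.35, so a trend with GC was still present in the members after removal of the one estimated on all genes. Members are short, with a median of 869 bases against 2906 for all tested genes, and RPL37 and RPL14 have canonical transcripts of 7573 and 7136 bases that may not be the ones in use. The direction of a member after pyruvate is therefore given below with both values, and whether the GC trend arose in the cells or in making the libraries was not tested.

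The members with the largest rises kept their direction under both scalings. RPL22L1 measured 174 and 213 in Control6 and 1269 and 1187 after pyruvate (log2 fold change 2.67, SE 0.14, adjusted p 1.17e-08). RPS3A (chromosome 4, 151099624 to 151104642), a small subunit protein that meets initiation factors, measured 1998 and 2274 in Control6 and 13193 and 12736 after pyruvate (log2 fold change 2.60, SE 0.07, adjusted p 1.79e-10). RPL7 (chromosome 8, 73290242 to 73295789), a large subunit protein, measured 2333 and 2757 in Control6 and 13434 and 12499 after pyruvate (log2 fold change 2.35, SE 0.08, adjusted p 6.63e-10). All pyruvate libraries of these genes lay several-fold above their controls, with log2 fold changes of 1.42, 1.72 and 1.14 after trend removal. RPL23A (chromosome 17, 28719985 to 28724359), which docks chaperones at the exit tunnel, measured 1163 and 1259.7 in Control6 and 5327 and 5189 after pyruvate (log2 fold change 2.12, SE 0.08, adjusted p 7.67e-10) and had 2.46 after trend removal. RPS6 measured 6832 and 7374 in Control6 and 26173 and 25169.8 after pyruvate (log2 fold change 1.85, SE 0.06, adjusted p 3.26e-10; 0.93 after trend removal). RPL5 measured 4500.4 and 4723 in Control6 and 16009 and 15970.1 after pyruvate (log2 fold change 1.79, SE 0.06, adjusted p 3.58e-10; 1.51 after trend removal). Both stayed above 0 with either scaling. RPL22 measured 816 and 915 in Control6 and 2902 and 2886 after pyruvate (log2 fold change 1.74, SE 0.09, adjusted p 8.4e-09; 0.74 after trend removal). In none of these did the groups overlap, but 5426 of all 12013 genes also lay above both controls. GC content was 39.9% in RPL22L1, 42.5% in RPS3A, 40.3% in RPL7, 47.8% in RPL23A, 42.4% in RPS6, 45.04% in RPL5 and 42.0% in RPL22.

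Members with the largest falls did not keep them. RPS19 (chromosome 19, 41860255 to 41872925), the small subunit protein most often mutated in Diamond-Blackfan anaemia, measured 20256 and 24099 in Control6 and 10158 and 9536 after pyruvate (log2 fold change -1.17, SE 0.08, adjusted p 7.22e-08), and after trend removal its log2 fold change was 0.02 (adjusted p 0.855). RPL36 (chromosome 19, 5674947 to 5691875) measured 4654 and 5398 in Control6 and 2487 and 2415 after pyruvate (log2 fold change -1.03, SE 0.08, adjusted p 2.85e-07), which turned to 0.40 (adjusted p 3.77e-04). In both genes the groups did not overlap, where 5442 of all 12013 genes lay below both controls. After trend removal RPS19 was near 0 and below the all-gene median of 0.20, whereas RPL36 lay above that median. RPS28 (chromosome 19, 8321158 to 8323340) measured 3070.3 and 3406 in Control6 and 1615 and 1617 after pyruvate (log2 fold change -1.0001, SE 0.08, adjusted p 3.3e-07). RPS21 (chromosome 20, 62387103 to 62388520) measured 3601 and 3991 in Control6 and 2213 and 2044 after pyruvate (log2 fold change -0.83, SE 0.08, adjusted p 1.59e-06). After trend removal RPS28 had 0.08 (adjusted p 0.304) and RPS21 0.20 (adjusted p 0.00786, limma), where the all-gene median was 0.20. Their GC contents were 56.0%, 61.0%, 53.8% and 52.2% in the order named.

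The stalk was lower in the deposited values. RPLP0 measured 61322 and 68179 in Control6 and 41107 and 39786 after pyruvate (log2 fold change -0.68, SE 0.06, adjusted p 6.13e-07). RPLP1 measured 18543 and 22547 in Control6 and 13876 and 12596 after pyruvate (log2 fold change -0.63, SE 0.08, adjusted p 2.99e-05). RPLP2 measured 8059.9 and 8636 in Control6 and 5269 and 5185 after pyruvate (log2 fold change -0.67, SE 0.06, adjusted p 1.09e-06). All 3 fell with no overlap, as in 5442 of all 12013 genes that lay below both controls. After trend removal only RPLP1 stayed below 0, at -0.37, with RPLP0 at 0.35 and RPLP2 at 0.64. RPSA and RPS3 fell by less, with log2 fold changes of -0.31 (adjusted p 5.86e-04) and -0.21 (adjusted p 0.0107), and had 0.31 and -0.52 after trend removal. With equal library totals these were 0.0047 and 0.098, below the all-gene median of 0.30 on that scale. RPL11 rose (log2 fold change 0.30, SE 0.07, adjusted p 0.00276), as did RPL41 (log2 fold change 0.59, SE 0.08, adjusted p 2.01e-05), RPL10 (log2 fold change 0.28, SE 0.06, adjusted p 5.99e-04) and RPS27A (log2 fold change 1.14, SE 0.07, adjusted p 5.65e-08), and RPL11, RPL41 and RPL10 had larger values after trend removal (0.70, 0.96 and 1.14), whereas RPS27A had 0.10 (adjusted p 0.059). RPL3 did not pass in the deposited values (-0.08, 95% CI -0.20 to 0.04) and had 1.03 after trend removal.

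The paralogue symbols were mostly higher after pyruvate. Of the 5 paralogue symbols 4 rose and RPL39L did not pass (0.36, 95% CI -0.08 to 0.79), though it did after trend removal, at 1.20 (adjusted p 4.94e-04, limma). RPL26L1 measured 257 and 263 in Control6 and 639 and 733 after pyruvate (log2 fold change 1.39, SE 0.14, adjusted p 2.35e-06). RPS27L measured 1655 and 2026 in Control6 and 3693 and 3488 after pyruvate (log2 fold change 0.97, SE 0.10, adjusted p 2.16e-06). RPL7L1 measured 4952 and 4712 in Control6 and 7101 and 6624 after pyruvate (log2 fold change 0.51, SE 0.06, adjusted p 1.94e-05). RPL26L1 held 1.16 after trend removal, but RPS27L turned to -0.58 and RPL7L1 to -0.10. The log2 ratio of RPL22L1 to RPL22 was -2.23 and -2.10 in Control6 and -1.19 and -1.28 after pyruvate, and that of RPL7L1 to RPL7 went the other way, from 1.09 and 0.77 to -0.92 and -0.92. None of the 5 ratios overlapped between groups (exact permutation p = 0.333, two-sided, the smallest possible). Single genes mostly did not overlap either, with 5426 of 12013 above both controls and 5442 below both. The ratios are free of the size factor but not of the GC trend where partners differ in GC, as RPL7L1 (45.5%) and RPL7 (40.3%) do. The level of RPL26, the partner of RPL26L1, is uncertain.

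Among the related lists, 12 of 19 elongation and TOP mRNA genes rose and 5 fell after pyruvate (median 1.16, 0.54 after trend removal). NAP1L1, a histone chaperone with a TOP mRNA, had 1988 and 2036 in Control6 and 11787 and 11485 after pyruvate (log2 fold change 2.53, SE 0.06, adjusted p 8.31e-11), and EEF2, the translocation factor, 100643 and 96823 in Control6 and 61282 and 61419 after pyruvate (log2 fold change -0.69, SE 0.05, adjusted p 9.72e-08), with 0.74 and 0.47 after trend removal. Of 40 ribosome biogenesis genes 19 rose and 17 fell (median 0.10), and after trend removal 32 rose and 1 fell (median 0.77). NPM1, which encodes nucleophosmin, had 928 and 1156 in Control6 and 13297 and 13219.5 after pyruvate (log2 fold change 3.68, SE 0.09, adjusted p 1.05e-10; 2.57 after trend removal), and BOP1, an assembly factor, turned from -1.15 to 0.37. Mitochondrial ribosomal protein genes had 24 of 79 higher and 41 lower (median -0.41, 0.28 after trend removal). Of 10 small nucleolar RNA hosts 5 rose and 2 fell, with SNHG1 at 1.80 (adjusted p 2.77e-07), and of 13 regulators 7 rose and 6 fell, with RPS6KB1, an S6 kinase, at 2.13 and its relative RPS6KB2 at -1.46, or 0.44 and -0.025 after trend removal. FAU fell (-0.88) and RPL36AL rose (1.48), and after trend removal both rose, by 0.40 (adjusted p 4.72e-04) and 0.45 (adjusted p 0.00674, limma). Pseudogenes had 17 of 61 higher and 16 lower (median 0.09), and 42 of 60 higher and 3 lower after trend removal (median 0.91). The shares over all genes to set beside these counts are 40.6% higher and 40.2% lower, or 40.4% and 25.5% after trend removal.

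Set side by side, the members' fold changes in the experiments, each with its own controls, were little correlated. Spearman's rho of the members' log2 fold changes was 0.15 between A485 and MS-275 over 80 members, 0.031 between A485 and pyruvate over 79 and 0.024 between MS-275 and pyruvate over 79. After trend removal the values were 0.078, -0.19 and -0.12 in the same order. A low rho with MS-275 cannot show a different order, since 0 of 81 members had an unadjusted p under 0.05 there (limma). The deposited fold changes after pyruvate followed GC content (rho -0.58 over 79 members). Of the 30 members that fell after A485, 13 rose and 13 fell after pyruvate in the deposited values, where 40.6% and 40.2% of all genes did. In the deposited values RPL22L1 had the lowest log2 fold change after A485 (-2.09), -0.15 after MS-275 and the highest after pyruvate (2.67). RPS6 had -1.14, 0.11 and 1.85 and RPLP0 -1.35, 0.059 and -0.68 after A485, MS-275 and pyruvate.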

How the data were processed

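RNA was measured by bulk RNA-seq (total RNA, paired-end reads). Per the labels and the study's methods, the authors trimmed reads with Trim Galore (version 0.6.10), aligned them to hg38 with HISAT2 (version 2.2.1), handled alignments with SAMtools (version 1.7) and counted reads per gene with featureCounts (version 2.0.6); size factors came from DESeq2 (version 1.34.0). The deposited values are a signal, each library's read counts divided by its size factor. Annotation, strand setting and treatment of reads with several alignments are not given in the sources used here. The 8 mouse muscle libraries were not used here.

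The members and gene lists were chosen with earlier results of these data known. Libraries were grouped by title, 2 per group. Values were taken as log2(value + 1) for genes whose mean over a comparison's 4 libraries reached 10, so fold changes of low genes are understated. Each comparison was tested with limma (version 3.58.1, R version 4.3.3), eBayes with an intensity trend and no covariate, two-sided, and p-values were adjusted by Benjamini-Hochberg over all genes. Rose and fell mean an adjusted p under 0.05. Low values were whole multiples of the value of 1 read (within 0.05 read) in 100% of genes in each library. Reads recovered by division were tested with edgeR (version 4.0.16) and DESeq2 (version 1.42.0) for A485 only. Shares and paralogue ratios were tested by exact permutation over libraries.

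Length and GC content came from the canonical transcript of GENCODE version 44, in place of the longest one first planned, for 98.4%, 98.4% and 99.0% of listed genes. The trend was a spline with 5 degrees of freedom on each of length and GC, fitted in each library. On simulated data with each comparison's spread, limma recovered 26% of changes of 1 and 67% of changes of 2 on the log2 scale for A485, 0% and 0% for MS-275, and 79% and 88% for pyruvate. Only a small part of the genes was changed in these simulations, far fewer than passed after A485 and pyruvate. The adjustment was therefore stricter there, and these rates are not the power of the fits to the data. Replicates of every group differed by more than sampling noise.

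Named members were the 4 highest and 4 lowest log2 fold changes in each comparison, RPLP0, RPLP1, RPLP2, RPSA, RPL5, RPL11, RPS6, RPL41, RPS27A, RPL3 and RPS3, and the paralogues with their partners, and of other lists the 2 highest and 2 lowest. RPL3L and RPL10L of the planned pairs were not among the listed genes. Some genes that these rules name are not reported here. Tables were handled with pandas (version 2.3.3) and numpy (version 2.4.6) in Python (version 3.11.15), permutations used scipy (version 1.17.1), and plots were drawn with matplotlib (version 3.10.9).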

Additional observations from a re-analysis of the deposited data

How the results depend on the processing

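The median fold change of the members kept its sign for A485 under every alternative tried (pseudocount, filter, scaling, trend, block, count tests, shared fit and leaving out each library) and for pyruvate under the same ones without count tests, but the number of members past the test moved. For most of these settings the share of all genes that passed is not given. For A485, against 30 lower, equal library totals gave 10 (median -0.41), quantile normalization 3 (median -0.36), eBayes without the intensity trend 2, a fit shared by the 12 libraries 3, DESeq2 61, a fold minimum of 1 12, and leaving out 1 library 0 to 4 (medians -0.95 to -0.65); the lone library left in a group is taken to vary like the others. For pyruvate, against 35 higher and 30 lower (median 0.18), equal library totals gave 15 lower (median 0.49), quantile normalization 14 lower (median 0.49), trend removal 53 higher and 17 lower (median 0.69), the shared fit 18 higher and 0 lower, a fold minimum of 1 15 higher and 3 lower, one of 0.58 12 lower, and leaving out 1 library medians of 0.035 to 0.22; a minimum mean of 50 gave a median of 0.094.

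The replicate numbers share only a number. Over all genes the differences between libraries 2 and 1 correlated between control and treated at r = 0.32 for A485, 0.73 for MS-275 and 0.0020 for pyruvate, and over the members at 0.17, 0.73 and -0.52. With the replicate block 60 members were lower after A485, and of all 16084 genes 2298 in place of 1320. After MS-275 the block gave 4 higher and 4 lower, and 1 higher and 4 lower with trend removal. For pyruvate the replicate block with trend removal gave 53 higher and 17 lower (median 0.69).

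Equal totals moved all genes alike (all-gene median 0.40 for A485 and 0.30 for pyruvate), and the members that changed sign under it stayed below those medians. Named members that changed sign after A485 were RPL22 (0.29 with equal totals, 0.093 with quantile normalization), RPL26 (0.34, 0.031, and 0.038 with trend removal, with or without the block), RPS27L (0.17 and 0.0032) and RPS9 (0.28 with equal totals). Leaving out 1 library gave -0.30 to 0.094 for RPL22, -0.24 to 0.13 for RPL26, -0.50 to 0.050 for RPS27L, -0.82 to 0.64 for RPS9, and -0.032 to 0.13 for RPL7L1. After pyruvate, equal totals gave RPL3 0.23, RPS3 0.098 and RPSA 0.0047, and quantile normalization RPL3 0.53, RPS3 0.25, RPSA 0.17, RPL26 -0.46 and RPL39L -0.31. Trend removal, with or without the block, gave RPL3 1.03, RPLP2 0.64, RPL36 0.40, RPLP0 0.35, RPSA 0.31, RPS21 0.20, RPS28 0.076, RPS19 0.017, RPL7L1 -0.097, RPL26 -0.12, RPL39 -0.52 and RPS27L -0.58. The cause of these changes was not tested. Among the named members only, and apart from values that changed sign, 69 values lost their call and 34 gained one under an alternative. For MS-275 and pyruvate, edgeR and DESeq2 were not run.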
